A study of Rattus norvegicus with 36 samples.

Results

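The lowest activity of radioiodine in this study, 9 kBq of 131I, was compared with mock treatment in the thyroid gland of the rat. The 8 arrays were chosen by their sample labels, 4 that give 9 kBq and 4 that give 0 kBq, out of 36 arrays in the series, and each array measured the thyroid RNA of 1 rat. All rats were adult male Sprague Dawley rats that were killed 24 h after an injection of saline into a tail vein, with the 131I dissolved in it for the irradiated groups. The rats ate standard chow and lived 4 to a cage, and whether a cage held 1 group is not given in the sources used here. The groups were injected in rising order of activity, the 9 kBq group first and the controls after all other groups, so that the activity and the place in that order cannot be told apart in this comparison. The groups given 88 kBq, injected next after the 9 kBq group, and 340 kBq, each with 4 rats, were used only where a value at 9 kBq was set against another activity.

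The follicular cells of the thyroid take up iodide with the sodium/iodide symporter, couple it to thyroglobulin, and store the product in the follicle. Radioiodine follows the same route, and its beta particles deposit their energy in the gland within a short range. The question of the comparison was therefore which transcripts differ after the smallest activity. Cells that sense DNA breaks activate p53, whose targets include the cell cycle inhibitor *Cdkn1a* and the p53 ligase *Mdm2*. The gland also holds a circadian clock. In this clock the BMAL1 and CLOCK proteins switch on the *Per*, *Cry*, *Nr1d1*, *Nr1d2*, *Dbp*, *Tef* and *Ciart* genes through E-boxes, PER and CRY proteins repress BMAL1 and CLOCK, and the REV-ERB receptors made from *Nr1d1* and *Nr1d2* repress *Bmal1*. *Dbp* and *Bmal1* therefore run in opposite phase in most tissues, and the mRNA of both swings widely over the day.

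A level is given as the log2 intensity of a probe minus the 75th percentile of its array, so that 0 is the brightness of the probe at that percentile. It compares rats for 1 probe and not probes with each other. On the 8 arrays between 64.4% and 79.1% of the 30367 probes were well above background by the scanner software's own call, and 0 spots were saturated. Of the probes, 17998 could be paired with a gene symbol. The SD between rats, taken as the median over all probes, was 0.578 on the log2 scale at 9 kBq and 0.610 in the controls (n = 4 each). The number of rats limits the precision of these values.

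The cellular make-up of the samples differed widely between rats of the same group, which the marker lists of 13 cell types show. For each list the linear signals of its probes were summed and expressed in multiples of the array's 75th percentile. In whole-gland RNA, fewer cells of a type and less RNA per cell cannot be told apart. The follicular list of 18 genes summed to 3.35, 243, 14.98 and 10.3 in rats 1 to 4 of the 9 kBq group, and to 330, 232, 15.9 and 426 in rats 1 to 4 of the controls. Rat 2 was thus the only rat of the 9 kBq group at the level of controls 1, 2 and 4, and control 3 lay with the remaining 9 kBq rats. Between 13 and 18 of the 18 genes were well above background on every array of the 8, with 13 in rat 1 of the 9 kBq group. Signal of the list was thus detected on all of them, but at very different levels. Since other cells make some of these genes, the count alone does not show how much follicular tissue a sample held.

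Thyroglobulin is the precursor protein of the thyroid hormones. *Tg* stood at −4.51, 6.78, −2.43 and −0.55 in the 9 kBq rats and at 6.96, 6.89, 3.18 and 7.37 in the controls. Rat 2 lay among the controls and the other 9 kBq rats lay below all of them. The mean difference was −6.28 (SE 2.59, limma unadjusted p = 0.0218, adjusted p = 0.999, exact permutation p = 0.0571). *Slc5a5*, the sodium/iodide symporter, was at −8.54, 1.04, −5.98 and −5.63 against 2.54, 0.70, −6.93 and 3.54. The transcription factors *Pax8* and *Nkx2-1*, which follicular cells need, showed the same order of rats, with 2.28 and 2.13 in rat 2 and no more than −5.39 in the other 9 kBq rats. *Duox1*, an oxidase that supplies peroxide for iodination and is also made by other epithelia, did not keep this order and was highest in rat 3 (−3.27, −0.45, 2.20 and 1.42 against 0.70, −0.46, −0.54 and 1.51). Of the 18 follicular genes, 17 were lower on average at 9 kBq and 1, *Slc26a4*, was higher, and the median difference was −2.82, beside a median of 0.07 over all probes. One gene, *Tg*, passed an unadjusted p-value under 0.05, and for 0 of the 18 did the rats of the groups not overlap. Over all probes, 3.22% passed that p-value and 1.73% were without overlap.

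**Figure D1:**
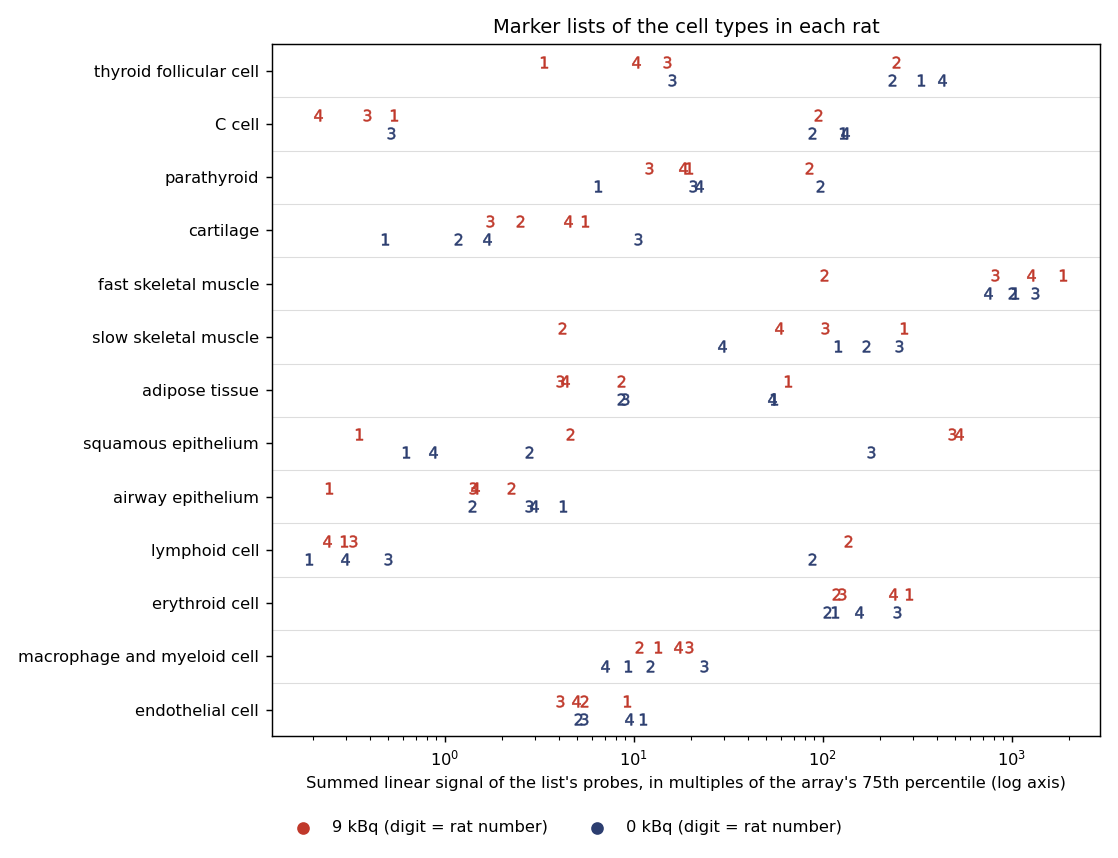
Summed linear signal of each marker list, in multiples of the 75th percentile of the array, on a log axis. Each digit is 1 rat with that number, red for 9 kBq and blue for 0 kBq, and sums of different lists are not comparable with each other because the probes differ. In the follicular row, rats 1, 3 and 4 of the 9 kBq group and rat 3 of the controls sit at 3.35 to 15.9 and the other 4 rats at 232 to 426.

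C cells, the calcitonin-producing cells of the gland, followed the follicular genes. Their 8 genes summed to 0.540, 94.0, 0.389 and 0.213 at 9 kBq and to 128, 87.4, 0.517 and 132 in the controls. *Calca*, which encodes calcitonin, was at −8.43, 6.25, −6.02 and −4.67 against 6.90, 6.27, −2.80 and 6.95. Parathyroid hormone, the product of the glands embedded in the thyroid, was high in rat 2 and in controls 2 and 4. *Pth* was at −8.56, 6.24, −5.55 and −8.63 against −6.80, 6.46, −7.81 and 4.04. It was well above background on 2 of the 9 kBq arrays and on 3 of the control arrays. The 5 measured parathyroid genes did not move together, with 2 higher and 3 lower on average and a median difference of −0.16. Of the 2 higher ones, 1 passed an unadjusted p-value under 0.05 in limma, beside 2.77% of all probes. *Casr*, another gene of this list, was also high in control 1 (−5.50, 2.83, −4.78 and −6.09 against 2.18, 1.74, −4.61 and 1.95).

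Rats 3 and 4 of the 9 kBq group carried the genes of squamous epithelium. *Krt13*, a keratin of the esophageal and oral lining, was at −6.45, −5.33, 6.77 and 6.99 in the 9 kBq rats and at −4.21, −5.71, 5.90 and −4.29 in the controls. *Krt4*, its partner keratin, was at −3.53, −3.87, 6.85 and 7.15 against −3.58, −5.55, 5.82 and −3.47. The 2 rats of the 9 kBq group and control 3 therefore stood apart from the other 5 rats. The 9 measured genes of the list summed to 485 and 525 in rats 3 and 4, to 179 in control 3 and to between 0.353 and 4.62 in the other rats.

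Lymphoid genes marked 1 rat in each group. *Cd3d*, a subunit of the T cell receptor complex, was at −2.52, 5.74, −2.67 and −3.42 at 9 kBq and at −3.61, 5.25, −1.83 and −2.55 in the controls. *Rag1*, the recombinase of immature lymphocytes, was at 3.66 in rat 2 and at 2.86 in control 2 and was not well above background on the other 6 arrays. The 10 lymphoid genes summed to 136 in rat 2, to 88.1 in control 2 and to between 0.192 and 0.500 in the remaining rats.

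Muscle and fat varied as well. The 10 fast muscle genes summed to 1859, 102, 817 and 1259 in the 9 kBq rats and to 1040, 996, 1326 and 745 in the controls, so rat 2 was far below all others. *Myh7*, the slow myosin heavy chain, was at 5.10, −3.26, 2.32 and −0.08 against 4.02, 4.57, 4.63 and 1.59. *Ucp1*, the uncoupling protein of brown fat, was at 3.55, −0.06, −5.41 and −7.62 against 3.49, −0.92, −7.41 and 4.29. Rat 1 and controls 1 and 4 thus shared high *Ucp1* levels, while rat 1 lacked the follicular signal of those controls. The 8 measured cartilage genes varied less at 9 kBq than in the controls, with a median SD of 1.03 against 2.73, and *Col2a1*, the main collagen of cartilage, was at 0.81, 0.17, −1.32 and 0.48 against −5.32, −1.41, 1.65 and −2.47. Erythroid, macrophage and endothelial lists varied less between rats, with summed ranges of 117 to 285, 10.6 to 19.5 and 4.06 to 9.25 at 9 kBq against 105 to 247, 7.05 to 23.5 and 5.06 to 11.2 in the controls.

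Over all probes, some pairs of rats from different groups were closer than most pairs within a group. The SD of the log2 difference between 2 rats was 0.687 for rats 3 and 4 of the 9 kBq group, and 0.774 for controls 1 and 4. Across the groups it was 0.919 for rat 2 and control 2, and 0.861 for rat 4 and control 3, while the other 10 pairs within these groups differed by 1.05 to 1.80. Rat 2 differed from the other rats of its own group by 1.70 to 1.80, and rat 1 differed from them by 1.41 to 1.80. The 10 genes with the largest SD among the 4 rats at 9 kBq, chosen for that spread and given as a description, were *Serpinb12*, *S100a7l2*, *Krt13*, *Pth*, *Defb4*, *Stfa3*, *Aqp3*, *Ly6d*, *Klk10* and *Psapl1*. Except for *Pth*, all of them were high in rats 3 and 4 and low in rats 1 and 2. *Serpinb12*, a protease inhibitor of epithelia, was for example at −8.66, −7.76, 5.40 and 5.72, and *Klk10*, a kallikrein protease, at −8.20, −9.26, 3.22 and 2.24.

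With the limits of the study, which asked for 1.5-fold or more and for an adjusted p-value below 0.01, 0 of the 30367 probes differed between 9 kBq and the controls in limma's moderated test (0%). An unadjusted p-value under 0.05 was reached by 979 probes (3.22% of all tested), 841 of them higher (2.77%) and 138 lower (0.454%) at 9 kBq. That share is smaller than the limit of 0.05 itself lets through on average when no probe differs. The 979 are therefore not a list of changed transcripts. The smallest adjusted p-value was 0.0138. At an adjusted p-value under 0.05 with the same fold change, 5 probes passed (0.0165%), 2 higher (0.00659%) and 3 lower (0.00988%). They were the 3 probes of *Dbp*, 1 of the 2 probes of *Bmal1* and 1 of the 2 probes of *Acin1*. Under the alternatives, 4 probes passed the study's limits after quantile normalization and in the authors' matrix. These were in both cases the 3 probes of *Dbp* and that of *Bmal1*. The authors' matrix is itself quantile normalized, so these alternatives share the same kind of scaling. A fit of only the 8 arrays called 0 probes at an adjusted p-value under 0.05, and its smallest adjusted p-value was 0.999. With array weights, which count some rats far more than others, 2353 probes passed the study's limits.

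The 5 probes also depended on single rats. Leaving out rat 2, rat 3 or rat 4 of the 9 kBq group or rat 3 of the controls left 0 of the 5 past an adjusted p-value of 0.05, leaving out control 2 left only that of *Bmal1*, and the slide as a block or median centring left 0. Without controls 1 or 4, or without rat 1 of the 9 kBq group, 3 to 4 of the 5 stayed called. The lowest adjusted p-value among the 5 probes was 0.0676 without rat 2 and 0.131 without control 3.

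At an unadjusted p-value under 0.01 with a fold change of 1.5, the comparison gave 181 probes (0.596%), 158 higher (0.520%) and 23 lower (0.0757%) at 9 kBq. With the fold change asked for as well, that share too is below the limit of 0.01 itself. The median of all probes was itself 0.07 above 0 on the log2 scale. After quantile normalization that median was −0.02, and the split was 105 higher and 42 lower, so the share of higher probes was 87.3% with the 75th percentile and 71.4% with quantile normalization. In the authors' matrix it was 66.2%. Median centring kept it at 86.7% (130 higher and 20 lower), and with dim probes filtered the split was 143 higher and 17 lower. The number of probes rose to 405 without rat 1 of the 9 kBq group and was 132 to 271 when any other rat was left out. Of the 158 higher probes, 99 had all 4 irradiated rats above all controls, and of the 23 lower probes 11 had all 4 below. Over all probes, this absence of overlap was found for 526 (1.73%), 451 higher (1.49%) and 75 lower (0.247%).

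**Figure D2:**
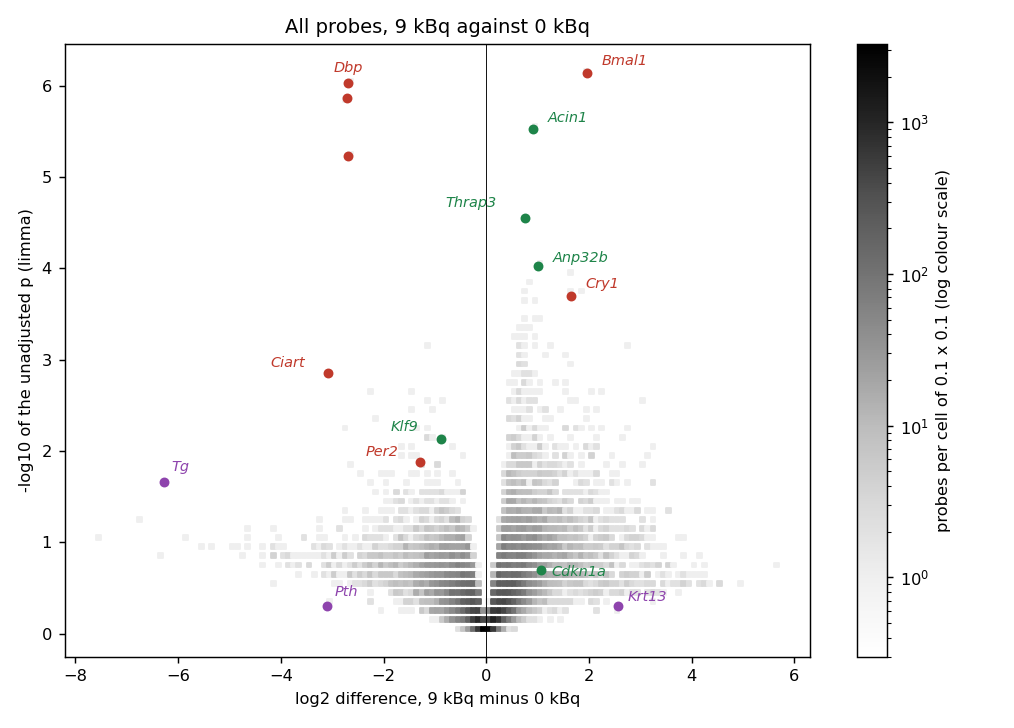
Log2 difference between 9 kBq and 0 kBq (x axis) against −log10 of limma's unadjusted p-value (y axis) for all 30367 probes, shown in grey as the number of probes per cell. Clock genes are red, other genes named in the text green, and cell type markers purple. *Dbp*, *Bmal1* and *Acin1* lie at the top, while *Tg*, with a difference of −6.28, lies far out at a modest p-value.

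*Dbp*, a transcription factor of the PAR bZIP family driven by the clock, gave 3 of the 5 probes. Its brightest probe was at 2.84, 2.10, 1.55 and 1.85 in the 9 kBq rats and at 4.56, 5.06, 5.76 and 3.71 in the controls. All 4 irradiated rats lay below all 4 controls. The level fell by 2.69 on the log2 scale (SE 0.49), a 6.43-fold decrease (limma adjusted p = 0.0357, exact permutation p = 0.0286, the smallest that 4 against 4 rats allow). The other probes gave −2.69 (adjusted p = 0.0138) and −2.72 (adjusted p = 0.0138). Over 19 alternatives the difference of the brightest probe stayed between −3.04 and −2.36, and it was called at an adjusted p-value under 0.05 in 9 of them.

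*Bmal1*, which encodes the activator of the clock loop, went the opposite way. Its brighter probe was at 0.70, 0.38, 0.21 and 0.54 in the 9 kBq rats and at −1.54, −0.88, −2.40 and −1.24 in the controls. The irradiated rats were again all on one side of the controls, and they were closer to each other (SD 0.21) than the controls were (SD 0.65). The level rose by 1.97 (SE 0.31, adjusted p = 0.0138, exact permutation p = 0.0286), which is a 3.92-fold increase, and 12 of 19 alternatives kept it under an adjusted p-value of 0.05. The second probe was higher by 1.61 (SE 0.36, adjusted p = 0.406) and did not overlap either.

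The same differences were taken within slides, within scan days and without the rats that stood apart in their markers. The arrays were spread over 5 slides, and 3 slides held both groups. Slide 1 held rat 2 with controls 3 and 4, slide 2 rat 3 with control 2, and slide 5 rat 4 with control 1. Rat 1 was on slide 4 without a control. Each difference within a slide thus rests on 1 rat at 9 kBq and has no spread of its own. Within slides 1, 2 and 5 the *Dbp* difference was −2.63, −3.51 and −2.71, and the *Bmal1* difference was 2.20, 1.09 and 2.08. With scans from the earlier and the later of 2 days taken apart, *Dbp* differed by −3.01 and −2.22. Without rat 2 and control 2, the lymphoid-rich rats, the differences were −2.60 and 2.21 for *Dbp* and *Bmal1* (adjusted p = 0.466 and 0.0376). Without rats 3 and 4 and control 3, the squamous-rich rats, they were −1.97 and 1.76 (adjusted p = 0.998 and 0.611). Rat 2 alone, the follicle-rich rat at 9 kBq, differed from controls 1, 2 and 4 by −2.34 and 1.60 (adjusted p = 0.519 and 0.470, with the lone rat assumed to vary like the other groups).

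The promoters of 3 clock genes are printed to show which clock elements lie next to the start of *Bmal1*, which rose, and of *Per2* and *Ciart*, whose means were lower without passing an adjusted p-value of 0.05. Each is the stretch of 250 bases upstream of the transcription start in RefSeq's GRCr8 assembly of the rat genome, written in lower case in the direction of the gene. Capitals mark the motifs searched on both strands: CACGTG, the E-box bound by BMAL1 and CLOCK; CACGTT, a variant of the E-box; TTANGTAA, the D-box bound by DBP, TEF and NFIL3; and TAGGTNA, the core of the element bound by REV-ERB and ROR receptors. The letters were chosen after these promoters had been seen, and no printed match overlaps another.
Bmal1: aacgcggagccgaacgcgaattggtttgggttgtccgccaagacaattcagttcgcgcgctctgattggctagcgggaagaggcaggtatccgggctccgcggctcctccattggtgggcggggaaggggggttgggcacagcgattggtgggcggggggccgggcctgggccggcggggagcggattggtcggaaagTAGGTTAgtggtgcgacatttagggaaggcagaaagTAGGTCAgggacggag
Per2: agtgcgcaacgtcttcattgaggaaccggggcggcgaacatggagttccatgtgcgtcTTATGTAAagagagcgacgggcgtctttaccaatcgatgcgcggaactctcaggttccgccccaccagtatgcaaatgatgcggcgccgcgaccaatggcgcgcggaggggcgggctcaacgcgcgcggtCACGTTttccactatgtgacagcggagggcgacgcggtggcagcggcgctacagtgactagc
Ciart: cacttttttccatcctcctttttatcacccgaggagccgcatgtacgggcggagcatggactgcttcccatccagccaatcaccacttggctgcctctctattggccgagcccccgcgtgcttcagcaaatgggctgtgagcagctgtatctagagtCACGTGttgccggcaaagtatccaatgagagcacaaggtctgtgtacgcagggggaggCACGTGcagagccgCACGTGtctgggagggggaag
The *Bmal1* stretch is chr1:176766078-176766327 on the plus strand, with matches to TAGGTNA that begin 52 and 16 bases before the start. The *Per2* stretch, chr9:99496994-99497243 on the minus strand, has a TTANGTAA match at 192 and a CACGTT match at 62 bases. The *Ciart* stretch, chr2:186112247-186112496 on the minus strand, has CACGTG at 93, 35 and 21 bases. Among all 33469 promoters of the table, stretches of this length held CACGTG in 5.59%, CACGTT in 4.07%, TTANGTAA in 2.04% and TAGGTNA in 7.55%. Of 15 measured clock genes with a promoter in the table, 3 held CACGTG, 3 held CACGTT, 1 held TTANGTAA and 1 held TAGGTNA. *Dbp* held none of these letters in this window, which says nothing of elements elsewhere in the gene. A match is a string of letters and not a measured binding site.

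Of the 11 measured clock genes that peak with *Dbp*, 9 were lower on average at 9 kBq and 7 were lower at an unadjusted p-value under 0.05, where 0.454% of all probes were. The median difference of the list was −1.14, beside 0.07 over all probes. *Hlf* and *Bhlhe41* had no named probe. For *Dbp* and *Per2* the rats did not overlap, as was so on the lower side for 0.247% of all probes.

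The *Per* genes encode the repressors of the loop. *Per2* was at −3.62, −2.91, −2.63 and −4.18 in the 9 kBq rats and at −2.36, −1.89, −1.54 and −2.37 in the controls, all irradiated rats below all controls (difference −1.29, SE 0.49, adjusted p = 0.999, exact permutation p = 0.0286). The 3 probes of *Per3* were lower by 0.86 to 1.14, and for 2 of them the rats did not overlap. On the one with the smallest p-value, *Per3* was at −4.68, −5.81, −4.55 and −4.53 against −3.78, −3.95, −3.33 and −3.93 (unadjusted p = 0.000631, adjusted p = 0.741). *Per1*, which also responds to acute signals, was at −4.16, −4.50, −5.20 and −5.18 against −5.77, −5.25, −4.33 and −4.52, with a difference of 0.21 (95% interval −0.67 to 1.08). *Cry2*, a repressor with a shallow rhythm in many tissues, differed by 0.16 (95% interval −0.44 to 0.75).

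*Nr1d1* and *Nr1d2*, the REV-ERB receptors, were lower on average but spread over the rats. *Nr1d1* was at −0.52, −5.85, −4.26 and −1.31 at 9 kBq and at −0.80, −1.17, 0.16 and −1.39 in the controls. Rats 2 and 3 were far below the controls, and rats 1 and 4 lay among them (difference −2.18, SE 0.93, unadjusted p = 0.0263, exact permutation p = 0.229). *Nr1d2* was at −3.37, −5.52, −5.47 and −4.25 against −3.38, −3.50, −2.80 and −3.85 (difference −1.27, SE 0.49, unadjusted p = 0.0144, exact permutation p = 0.114). *Ciart*, a repressor of BMAL1 and CLOCK, was not well above background on any of the 4 arrays at 9 kBq and was on 3 of 4 in the controls. Its levels were −8.41, −9.32, −7.52 and −8.45 against −5.53, −4.76, −3.32 and −7.75, so rat 3 lay above control 4. The fitted difference was −3.09 (95% interval −4.87 to −1.30, limma adjusted p = 0.891), which is 8.49-fold lower at 9 kBq. This fold change rests on the probe's own dim signal on all 4 arrays at 9 kBq and is not a lower bound. With normexp background correction the difference was −0.98 on the log2 scale.

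*Tef*, a PAR bZIP factor like *Dbp*, was at 1.43, −0.88, 0.32 and 0.55 against 1.24, 1.68, 2.21 and 0.84 (difference −1.14, SE 0.49, unadjusted p = 0.0263), and rat 1 lay among the controls. *Bhlhe40* and *Usp2*, a clock repressor and a deubiquitinase with a strong daily rhythm, differed by −0.75 and −0.58 (unadjusted p = 0.239 and 0.473). Both were lowest in rat 2.

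All 5 measured clock genes that peak with *Bmal1* were higher on average, and 4 of the 5 passed an unadjusted p-value under 0.05, where 2.77% of all probes were higher. Their median difference was 1.43. These counts too describe a list that was chosen with earlier results known, and they do not test it. *Cry1*, the cryptochrome that represses late in the cycle, was at −0.06, −0.35, 0.28 and −0.30 in the 9 kBq rats and at −2.38, −1.05, −1.05 and −2.55 in the controls. The groups did not overlap, and the controls formed pairs, 2 and 3 above 1 and 4 (difference 1.65, SE 0.39, unadjusted p = 0.000199, adjusted p = 0.504). *Clock*, the partner of *Bmal1*, was at −2.57, −3.08, −1.65 and −1.66 against −2.86, −3.91, −3.72 and −2.98 (difference 1.13, SE 0.36, unadjusted p = 0.00400). Its rats 3 and 4 were well above all controls, rat 1 was just above, and rat 2 lay among them. *Nfil3*, a repressor that competes with DBP, was at −0.01, −2.56, −1.03 and −0.65 against −1.97, −2.68, −2.71 and −2.61 (difference 1.43, SE 0.70, unadjusted p = 0.0490). Without the rats low in follicular genes, which leaves rat 2 against controls 1, 2 and 4, it was lower by 0.14. *Npas2*, which can stand in for *Clock*, differed by 0.31 (95% interval −0.93 to 1.55).

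**Figure D3:**
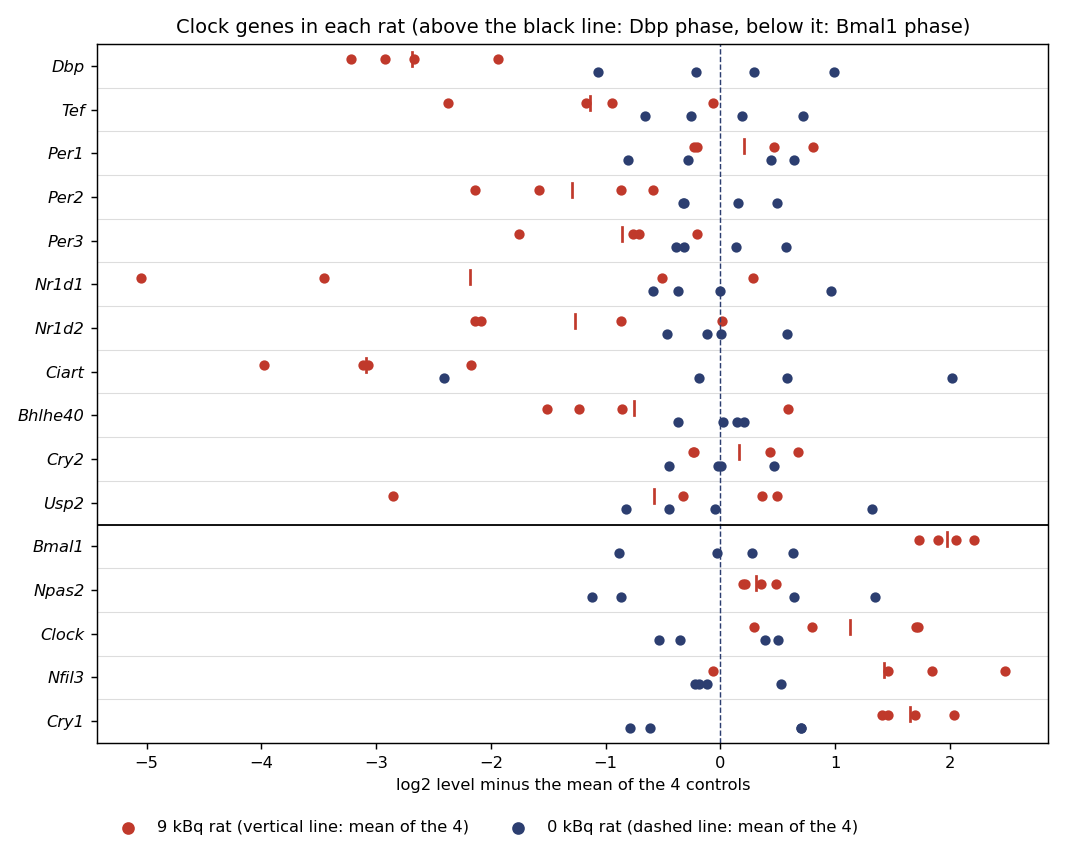
Log2 level of each clock gene minus the mean of the 4 controls, 1 point per rat, red for 9 kBq and blue for 0 kBq, with the brightest probe of each gene. Vertical red lines are the means of the 9 kBq rats, which lie at −2.69 for *Dbp* and at 1.97 for *Bmal1*.

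The remaining probe past an adjusted p-value of 0.05 was that of *Acin1*, which encodes a nuclear protein of the spliceosome and the exon junction complex. It was at −1.57, −1.44, −1.56 and −1.73 in the 9 kBq rats and at −2.45, −2.44, −2.32 and −2.77 in the controls. The spread between rats was small in both groups (SD 0.12 and 0.19), and the level rose by 0.92 (SE 0.16, adjusted p = 0.0228, exact permutation p = 0.0286), a 1.89-fold increase. The second probe was higher by 0.55 (SE 0.14, adjusted p = 0.741), also without overlap. Of 19 alternatives, 6 kept the first probe at an adjusted p-value under 0.05, and all 19 kept its direction.

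The next genes with the smallest p-values among those higher without overlap differed by 0.62 to 1.01, and none of these 9 passed an adjusted p-value of 0.05. *Thrap3*, a nuclear protein of mRNA splicing, was at 0.14, 0.31, −0.01 and 0.03 against −0.36, −0.52, −0.57 and −1.07 (difference 0.75, SE 0.15, adjusted p = 0.142). *Anp32b*, a histone chaperone, was at 2.79, 3.42, 3.13 and 2.91 against 2.12, 2.42, 1.91 and 1.78 (difference 1.01, SE 0.22, adjusted p = 0.406). Higher without overlap were also *Pds5a* (0.93), a regulator of cohesin, *Tdrd3* (0.66), a reader of methylated arginine, *Smurf2* (0.71), a ubiquitin ligase, *Jmjd1c* (0.62), a member of the histone demethylase family, *Fip1l1* (0.62), a factor of mRNA polyadenylation, *Dnajc17* (0.94), a J domain protein, and *Ap4e1* (0.85), an adaptor subunit of vesicle transport. For example, *Smurf2* was at 0.37, 0.54, 0.40 and 0.34 against −0.07, −0.26, −0.67 and −0.18. *Ap4e1* was well above background on only 2 of the control arrays.

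On the lower side, *Klf9*, a transcription factor that responds to glucocorticoids and to the clock, was at 1.61, 0.86, 0.34 and 1.02 against 1.71, 1.73, 2.26 and 1.63 (difference −0.87, SE 0.30, unadjusted p = 0.00737). Rat 1 lay just below the lowest control. *Stc2*, a secreted glycoprotein hormone, was at −5.10, −5.86, −6.55 and −5.91 against −4.02, −5.07, −4.57 and −4.11 (difference −1.41, SE 0.50, unadjusted p = 0.00815), with rat 1 only just below the lowest control. *Slc1a7*, a glutamate transporter, was lower by 0.96, *Rasl10a*, a small GTPase, by 1.57, *Fam76a* by 0.49 and *C1h9orf85* by 0.40, with unadjusted p-values from 0.0113 to 0.0292. *Gata6* was not well above background in either group, and *Zfp418* was so on 1 array in all. Of the 12 lower genes, 3 belong to the clock, *Dbp*, *Per2* and *Per3*. The 12 were chosen by these same values, so that count describes the choice and is not a result about the clock.

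No p53 target passed an adjusted p-value of 0.05 in limma. *Cdkn1a*, the target most used as a sign of radiation, was at 2.92, 0.40, 3.24 and 3.50 on its brightest probe at 9 kBq and at 0.18, 0.76, 3.25 and 1.61 in the controls. Rat 2 was low, control 3 was high, and the difference was 1.07 (95% interval −0.61 to 2.74, adjusted p = 0.999). On slide 1, with rat 2 as its only 9 kBq rat, it was −2.03. On slides 2 and 5, with 1 rat of each group, it was 2.48 and 3.33. A second probe of *Cdkn1a* was at 1.88, 1.09, 1.49 and 2.15 against 1.41, 0.82, 2.01 and 1.82, with a difference of 0.14 (95% interval −0.48 to 0.75). *Mdm2* was at 0.28, −0.35, −0.15 and 0.17 against −0.41, −0.07, 0.38 and −0.47 (difference 0.13, 95% interval −0.36 to 0.62). *Aen*, a nuclease induced by p53, was at 1.11, 1.09, 1.89 and 1.29 against 0.86, 1.03, 0.997 and 0.53, without overlap (difference 0.49, SE 0.41, unadjusted p = 0.239, exact permutation p = 0.0286). *Bax*, the pore-forming apoptosis protein, differed by 0.22, *Ccng1*, a cyclin, by −0.15, and *Plk2*, a polo-like kinase, by 1.16 with unadjusted p-values of 0.449, 0.840 and 0.0915. Of the 17 measured p53 targets, 9 were higher and 8 lower, and the median difference was 0.13. An unadjusted p-value under 0.05 was reached by 0 of the 17, beside 3.22% of all probes, so this count is near that share. For 1 of them, *Aen*, the rats did not overlap, beside 1.73% of all probes.

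Genes of DNA damage signalling and repair were measured with 20 genes, of which 14 were higher and 6 lower, with a median of 0.14, and 1 passed an unadjusted p-value under 0.05, beside 3.22% of all probes. *Mre11*, a nuclease that binds broken DNA ends, was at −4.45, −4.01, −4.44 and −4.42 against −4.92, −4.62, −4.94 and −5.01, without overlap (difference 0.55, SE 0.25, unadjusted p = 0.0380). Its partner *Nbn* was at 0.20, 0.13, −0.05 and −0.21 against 0.26, 0.31, 0.33 and 0.21, without overlap in the opposite direction (difference −0.26, SE 0.19, unadjusted p = 0.182). Over all probes, absence of overlap was found for 1.49% on the higher side and for 0.247% on the lower side. *Gadd45a*, a stress-induced gene, was at 0.54, 1.47, −0.24 and 0.17 against 1.22, 0.90, 0.83 and 1.01. The 15 measured cell cycle genes were all higher on average, with a median of 1.43. An unadjusted p-value under 0.05 was reached by 0 of them, beside the same 3.22% of all probes. Their sum was 2.36, 46.4, 24.8 and 15.8 in rats 1 to 4 and 3.42, 28.9, 3.73 and 3.77 in the controls. The part of the lymphoid and squamous cells in these values was not tested.

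In each of the other 7 pathway lists of 7 to 17 measured genes, between 0 and 1 gene passed an unadjusted p-value under 0.05, beside 3.22% of all probes. *Jund*, an AP-1 subunit, was at 2.38, 3.01, 2.13 and 2.33 against 3.37, 2.89, 2.60 and 4.08 (difference −0.77, unadjusted p = 0.0467), and the 12 immediate early genes had a median of 0.01. *Cirbp*, an RNA-binding protein that rises in the cold, was at −2.09, −0.84, −2.35 and −2.39 against −0.02, −0.80, −1.90 and −0.08 (difference −1.22, unadjusted p = 0.0435). It was lower in the follicle-poor rats of both groups than in the follicle-rich ones. *Klf9*, given above, passed among the glucocorticoid-responsive genes, whose median was 0.12, and the median of the inflammatory genes was −0.05. The metallothionein *Mt1*, which binds zinc and copper, was at 1.41, 3.72, 1.60 and 1.47 against 4.79, 3.89, 1.19 and 4.96, and *Hmox1*, heme oxygenase, at −2.32, −1.69, 0.51 and 0.36 against −2.36, −1.41, −0.04 and −2.32. *Mt1* was thus higher in the follicle-rich rats of both groups, and *Hmox1* in the squamous-rich ones. The medians were −0.19 for peroxide and redox defence (17 genes), −0.37 for interferon and antigen processing (15 genes), 0.17 for temperature-responsive chaperones (7 genes) and −0.47 for chaperones and stress genes of the endoplasmic reticulum (12 genes). *Gclm*, *Ifit1* and *Ptgs2* were not well above background on any of the 8 arrays.

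**Figure D4:**
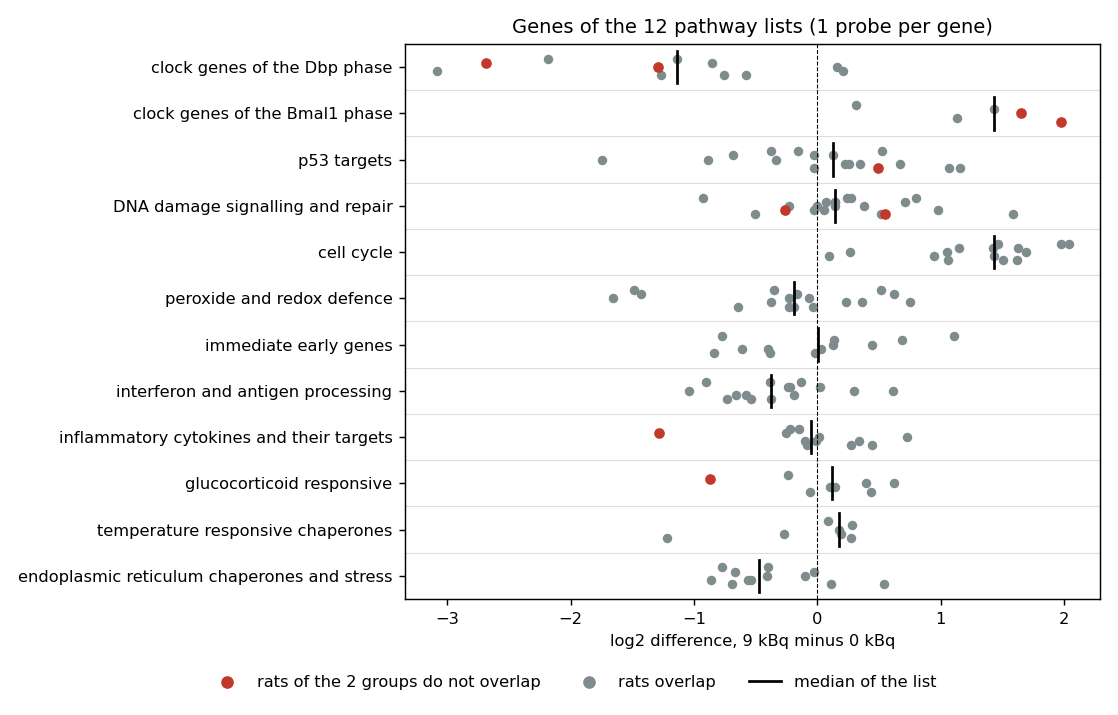
Log2 difference between 9 kBq and 0 kBq for each gene of the 12 pathway lists, with 1 probe per gene. Red points are genes whose 4 rats at 9 kBq all lay above or all below the 4 controls, grey points are the others, and black lines are list medians, −1.14 and 1.43 for the clock lists and between −0.47 and 0.17 for all others except the cell cycle at 1.43.

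Myeloid genes were measured among the cell type markers, and all 8 were higher on average. *S100a8* and *S100a9*, the calprotectin subunits of neutrophils that squamous epithelium also makes, were the ones with large differences. *S100a9* was at −3.82, −2.43, −3.32 and −3.31 against −4.66, −4.93, −4.26 and −4.92, without overlap, as 1.49% of all probes were on the higher side (difference 1.47, SE 0.96, unadjusted p = 0.138, exact permutation p = 0.0286). *S100a8* was at −5.50, −3.68, −3.24 and −2.60 against −6.56, −6.21, −4.57 and −6.80 (difference 2.28, SE 1.24, unadjusted p = 0.0771). The other 6 genes differed by 0.04 to 0.47.

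Against the 88 kBq group, injected next, 0 probes passed an adjusted p-value of 0.05 in limma, and 41 passed an unadjusted p-value under 0.01 with a fold change of 1.5 (0.135%), 18 higher (0.0593%) and 23 lower (0.0757%) at 9 kBq. An unadjusted p-value under 0.05 was reached by 367 (1.21%), 169 higher (0.557%) and 198 lower (0.652%), which is again a smaller share than that limit. *Dbp* was at 2.05 ± 0.44 (SD, n = 4) at 88 kBq and at 2.08 ± 0.55 at 9 kBq, with a difference of 0.04 (95% interval −0.96 to 1.03). *Bmal1* was at 0.42 ± 0.42 and 0.46 ± 0.21 (difference 0.04, 95% interval −0.60 to 0.69), and *Cry1* differed by 0.16 (95% interval −0.63 to 0.95). These intervals leave room for moderate differences in either direction, but not for differences as large as those from the controls. *Acin1* was lower at 88 kBq, at −1.9998 ± 0.08, than at 9 kBq, at −1.58 ± 0.12, and the 4 rats of one group lay above those of the other (difference 0.42, limma unadjusted p = 0.0127, adjusted p = 0.99998, exact permutation p = 0.0286). The share of all probes without overlap was not counted for this pair of groups. For *Anp32b* the difference between these activities was 0.49 (unadjusted p = 0.0360, exact permutation p = 0.0857), which did not pass an adjusted p-value of 0.05. Both genes had been chosen for a high level at 9 kBq against the controls. The same 9 kBq values enter here, so these p-values are not independent of that choice. The number of probes was 90 and 119 without rats 1 and 2 of the 88 kBq group, and 121 and 25 without rats 2 and 3 of the 9 kBq group.

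Against the 340 kBq group, 0 probes passed an adjusted p-value of 0.05 and 671 passed the unadjusted limits (2.21%), 38 higher (0.125%) and 633 lower (2.08%) at 9 kBq. An unadjusted p-value under 0.05 was reached by 2812 (9.26%), 313 higher (1.03%) and 2499 lower (8.23%). The direction depended on the kind of scaling, on dim probes and on 1 rat. The median of all probes was −0.19 with the 75th percentile and 0.03 with quantile normalization, which gave 191 higher and 173 lower probes. Median centring kept the split at 64 higher and 521 lower, and normexp at 48 and 891. With dim probes filtered it was 42 and 66, and without rat 4 of the 340 kBq group 78 and 119. On the array of that rat 91.1% of the probes were well above background, against 64.4% to 79.1% on the 9 kBq and 0 kBq arrays. Of the alternatives, a fit of only the 8 arrays gave 78. *Dbp* was at 3.01 ± 0.68 at 340 kBq (difference −0.92, 95% interval −1.92 to 0.07) and *Bmal1* at 0.25 ± 0.35 (difference 0.21, 95% interval −0.43 to 0.85). *Nr1d1* and *Nr1d2* were lower at 9 kBq by 2.40 and 1.19 (unadjusted p = 0.0156 and 0.0214). The number of probes was 1411, 1195 and 197 without rats 2, 3 and 4 of the 340 kBq group, and 1190, 232 and 290 without rats 1, 2 and 3 of the 9 kBq group.

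**Figure D5:**
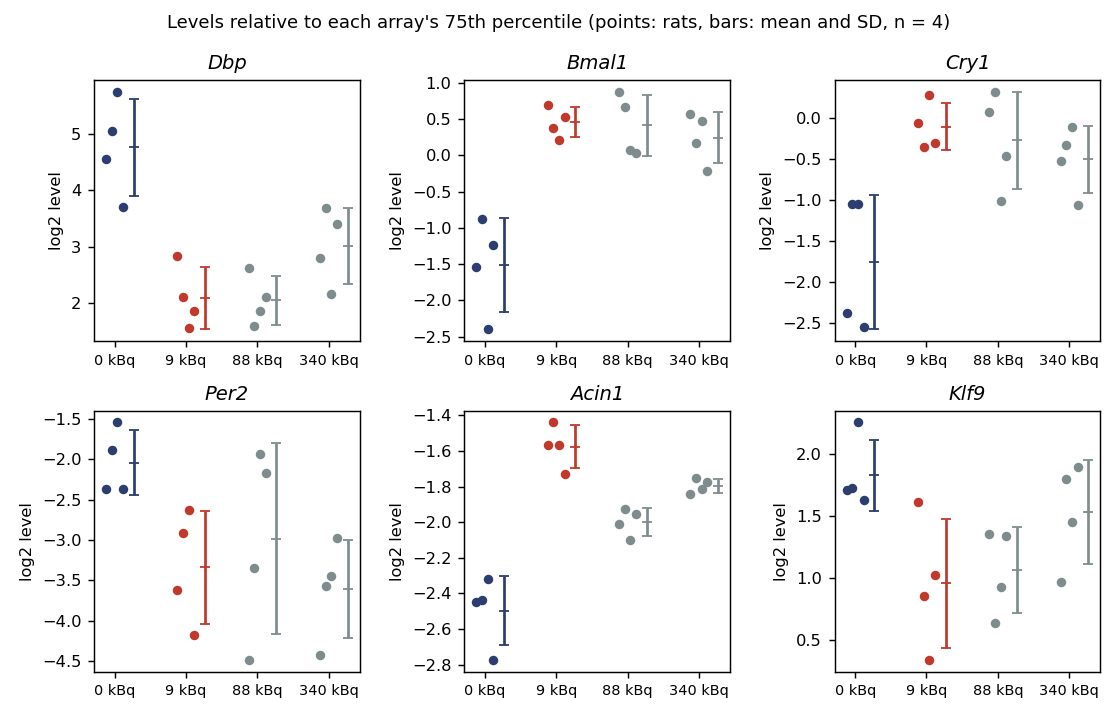
Log2 level of 6 genes, relative to the array's 75th percentile, in the 4 rats of the 0, 9, 88 and 340 kBq groups. Points are rats and bars give the mean and SD (n = 4). *Dbp* is at 3.71 to 5.76 in the controls and at 1.55 to 2.84 at 9 kBq, and *Acin1* at 88 kBq (mean −1.9998) lies between the controls and 9 kBq.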

How the data were processed

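Thyroid RNA of 36 rats was labelled with Cy3 and hybridised to 1-colour Agilent rat arrays, which the authors scanned and read with Feature Extraction 10.7.3.1. The deposited intensity, background-subtracted by that software, was used after log2 transformation, without outlier spots, minus each array's 75th percentile, with spots averaged per probe. The deposited matrix of intensities, which the authors had quantile normalized themselves, served as an alternative after log2 transformation. On the log2 scale its columns correlated with their own arrays at r of 0.9918 or more and had a common median of 7.685. Each of the 36 fitted its own array best. Groups came from the sample labels.

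All 9 groups were fitted together with limma 3.58.1 in R 4.3.3, and p-values were adjusted after Benjamini-Hochberg over 30367 probes. The study's limits were used (adjusted p under 0.01, fold change 1.5), and since its test was not named in the sources used here, limma's moderated test was chosen. Exact permutation tests were two-sided. On simulated data for this comparison (30268 probes), changes of 2, 4, 6 and 8 spreads were called right in 4%, 76%, 100% and 100%, with 2 false calls. The simulation drew independent normal values with the same spread in every group. It did not include the differences in cell types that many probes share between these rats, so its rates may not hold for them. Named genes were the clock and marker genes, probes past an adjusted p of 0.05, the 12 genes per direction with the smallest p among those without overlap, and the 10 with the largest SD at 9 kBq. For a gene with several probes, the brightest was used in the lists. Genes were named by accession through RefSeq. Some genes that this rule names are not reported here. The comparison, members and lists were chosen with earlier results of these data known. Alternatives were other scalings and background correction, filters, blocks, array weights and leaving out each rat.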

Additional observations from a re-analysis of the deposited data

Results flagged for a closer look

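Of 180 groups of 4 rats examined, 24 had a highest or lowest rat far from the other rats of its group. Some of these genes were chosen for their spread or for absence of overlap, and the same rat often recurs. The groups are therefore not independent, and the count is a description that cannot be set against a rate by chance. At 9 kBq, rat 2 stood alone for *Nkx2-1* (2.13), *Pax8* (2.28), *Cd3d* (5.745), *Rag1* (3.66), *Mt1* (3.72), *Mre11* (−4.01) and *Per3* (−5.81), and for the mean log2 level of the C cell list (0.46) and of the lymphoid list (1.79). Rat 1 stood alone for *Ap4e1* (−6.29).

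Among the controls, rat 3 stood alone for *Tg* (3.18), *Calca* (−2.80), *Krt13* (5.90), *Serpinb12* (3.925), *Defb4* (3.75), *Klk10* (0.95), *S100a7l2* (0.89), *Klf9* (2.26) and *Dnajc17* (−5.315), and for the mean log2 level of the C cell list (−5.03) and of the squamous list (1.99). Control 2 stood alone for *Rag1* (2.86) and for the mean log2 level of the lymphoid list (0.95), and control 1 for *Nfil3* (−1.97).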

How the results depend on the processing

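At the study's limits the count for 9 kBq against controls was 0 with the settings of the report, 4 with dim probes filtered, with quantile normalization and with the authors' matrix, 2 with normexp, 2353 with array weights, 5 at an adjusted p under 0.05, and 0 to 1 when 1 rat was left out. The weights ran from 0.284 (rat 2) to 4.56 (rat 4) at 9 kBq. At an unadjusted p under 0.01 the count of 181 became 109 with normexp, 96 with only the 8 arrays, 5874 with array weights, 84 at a fold change of 2, 5 at an adjusted p under 0.05 and 132 to 405 with 1 rat left out. Against 88 kBq the count of 41 became 17 with dim probes filtered, 6 with normexp, 5172 with array weights and 25 to 121 with 1 rat left out. Against 340 kBq the count of 671 became 108 with dim probes filtered, 349 with the authors' matrix, 364 with quantile normalization, 370 with the slide as a block, 78 with only the 8 arrays, 1256 with array weights and 197 to 1411 with 1 rat left out.

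Chosen after seeing the data, the fit without the rats low in follicular genes (rat 2 against controls 1, 2 and 4) gave 5 probes at the study's limits, with 1 rat in an arm that is assumed to vary like the other groups, and 569 at the unadjusted limit, and turned *Nfil3* to −0.14. It called 0 of the 5 probes of *Dbp*, *Bmal1* and *Acin1* at an adjusted p under 0.05, so its 5 probes are different ones. The cause was not tested for any of these. The replicate number as a block gave 0, 177, 38 and 653. Deviations of same-numbered rats correlated at 0.143, 0.565, 0.448 and −0.291, against at most 0.0717, 0.340, −0.216 and 0.611 with another number. Rats 1, 2 and 3 thus correlated best with their own number and rat 4 did not, and since not every correlation was above 0.1 and nothing in the labels ties the numbers, the rats were not treated as pairs.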

Other observations

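*Csnk1e*, a kinase that phosphorylates PER proteins, was chosen after its values were seen. On its first probe it was at −1.54, −1.97, −0.86 and −1.48 in the 9 kBq rats and at −2.14, −2.53, −1.94 and −2.86 in the controls (difference 0.91, limma unadjusted p = 0.0026, adjusted p = 0.999, exact permutation p = 0.0571). Rat 2 overlapped the controls. Its other probes differed by 0.86 and 0.28 (unadjusted p = 0.0039 and 0.328).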
